A study of Homo sapiens with 4 samples.

Results

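The genes described here encode the core histones H2A, H2B, H3 and H4 and the linker histone H1, most of which cells make when they copy their DNA. They were taken as the rows of the deposited array table whose current gene symbol begins with H1-, H2AC, H2BC, H3C or H4C followed by a number. This rule found 64 of the 21448 transcript clusters on the array, 9 of type H1, 14 of H2A, 17 of H2B, 9 of H3 and 15 of H4. Each transcript cluster pools the probes of one locus into a single value, and each of the 64 genes had 1. A further 10 protein-coding genes of the same naming in RefSeq were not analysed here, among them H3C14 and H3C15.

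RNA came from SUIT2 cells given fb-PMT at 30 µM for 24 h (2 arrays) and from SUIT2 cells given phosphate-buffered saline for the same 24 h (2 arrays, the control group, which the titles call untreated). SUIT-2 is an established line known from a pancreatic ductal adenocarcinoma, while the labels call the cells glioblastoma. The drug fb-PMT carries the thyroid hormone analog tetraiodothyroacetic acid, coupled to polyethylene glycol, and is aimed at the hormone receptor of integrin αvβ3. The study asked how the drug changes transcription of genes that cancer cell mitochondria need. The labels do not say that replicates were separate cultures, so the p-values here rest on the spread between arrays, which may be technical.

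Of the epithelial markers, KRT8, KRT18, KRT19 and EPCAM were above the array's negative controls on all 4 arrays and CDH1 was below them on all 4. The 4 glial markers on the array, GFAP and OLIG2 among them, and all 5 germ cell markers did not reach the negative controls on any array. Of the fibroblast markers, COL1A2 was above them on all 4 arrays and COL1A1 on none. The negative controls' 95th percentile, used as background, was 7.15 and 7.29 (log2) on the fb-PMT arrays and 7.38 and 7.22 on the control arrays. Arrays of one group correlated across transcript clusters with r = 0.9957 (fb-PMT) and 0.9946 (control), and arrays of different groups with 0.9923 to 0.994.

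Nucleosomes hold an octamer of H2A, H2B, H3 and H4 around which DNA is wrapped, and H1 binds where the DNA enters and leaves. As background, most of these genes are transcribed in S phase from clusters on chromosomes 6 and 1, with the coactivator NPAT, which cyclin E and its kinase switch on. Their mRNAs end in a stem loop instead of a poly(A) tail. The stem-loop binding protein SLBP holds this end, which the U7 small nuclear ribonucleoprotein helps to cut, and the mRNAs are broken down when DNA synthesis stops. The rule also takes in genes that do not follow this pattern: H1-10 is made outside S phase as well, H1-6 and H1-7 belong to male germ cells, H1-8 to oocytes, and H2AC1 and H2BC1 are known from testis.

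The promoters of the members, which the rule did not use, showed what each histone type shares. RefSeq promoters (build GRCh38.p14, 250 bases before to 50 after the start site) were matched for 60 of the 64 genes. Motifs were searched on both strands: the octamer ATTTGCAT, known as a site of POU2F1; CCAAT, a site of NF-Y; TATAAA, the TATA box; AAACACA, known from H1 promoters; the E2F sites TTTGGCGC and TTTCGCGC; and GGTCCG, known from H4 promoters and added after the sequences were seen. The octamer stood in 14 of 17 H2B promoters (82.4%) and 8 of 13 H2A promoters (61.5%), in 0 of the H1, H3 and H4 promoters, and in 1.8% of all 27305 promoters in the table. CCAAT was in all 13 H2A, 17 H2B and 8 H3 promoters and in 8 of 9 of H1, against 3 of 13 of H4 (23.1%) and 35.7% of all promoters. AAACACA stood in 7 of 9 H1 promoters (77.8%), against 5.76% of all promoters. GGTCCG was in 12 of 13 H4 promoters (92.3%), each time 44 to 47 bases before the start site, against 11.2% of all promoters. TATAAA was in 40 of the 60 (66.7%), against 12.0% of all promoters, and an E2F site in 10 of the 60 (16.7%), against 1.18%. The TATAAA match nearest before the start site began at a median of 30.5 (H1) to 31.5 (H3) bases upstream. It lay as far away as 206 bases in H2A, 220 in H2B, 157 in H3 and 250 in H4, so not every match is placed as a TATA box.

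**Figure D1:**
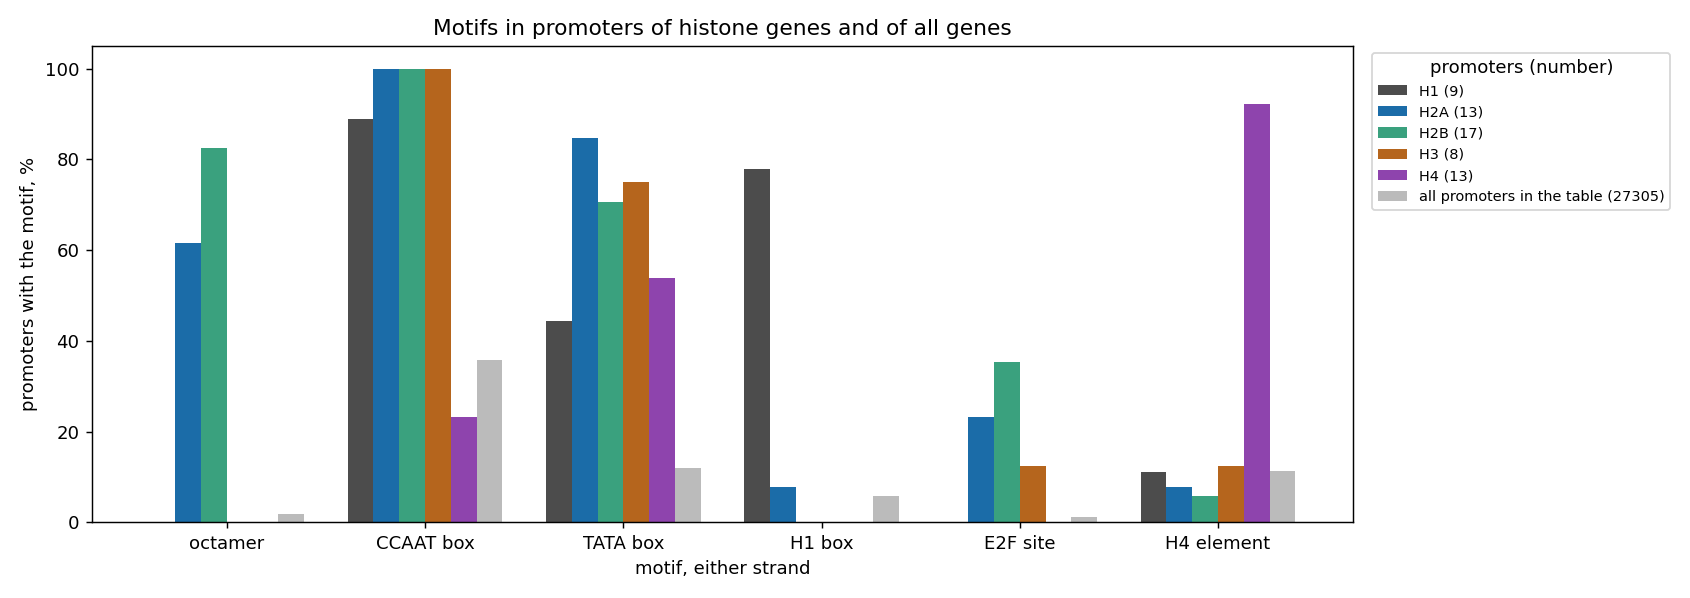
Share of promoters (vertical axis, percent) that hold each motif on either strand, for the 5 histone types and for all 27305 promoters in the table. The octamer bars stand over H2A and H2B alone among the histone types, the AAACACA bar (H1 box) reaches 77.8% over H1, and the GGTCCG bar (H4 element) reaches 92.3% over H4.

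The 4 linker histone promoters shown first belong to the H1 genes above the negative controls. Each window runs from 130 bases before the start site to its first 10 bases, 5′ to 3′ on the gene's strand, with every searched motif in capitals. All 4 hold AAACACA upstream and CCAAT nearer to the start.
H1-2 (chr6:26056461-26056600, minus strand): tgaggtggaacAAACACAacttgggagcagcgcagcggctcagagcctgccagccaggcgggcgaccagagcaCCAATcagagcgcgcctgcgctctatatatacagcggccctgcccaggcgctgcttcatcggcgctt
H1-3 (chr6:26234978-26235117, minus strand): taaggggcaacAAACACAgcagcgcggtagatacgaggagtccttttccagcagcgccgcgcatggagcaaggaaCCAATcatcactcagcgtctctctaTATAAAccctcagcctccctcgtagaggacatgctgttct
H1-4 (chr6:26156199-26156338, plus strand): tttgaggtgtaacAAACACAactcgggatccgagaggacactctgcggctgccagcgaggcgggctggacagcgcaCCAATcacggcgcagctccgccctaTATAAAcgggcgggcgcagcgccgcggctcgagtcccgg
H1-5 (chr6:27867579-27867718, minus strand): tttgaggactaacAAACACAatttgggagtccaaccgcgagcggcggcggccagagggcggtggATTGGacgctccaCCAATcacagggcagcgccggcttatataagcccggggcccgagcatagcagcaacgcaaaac

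The H2B windows are those of the 2 members with the highest array values (H2BC12, H2BC18) and of H2BC26, which had the most negative difference among measured H2B genes. H2BC12 and H2BC18 hold the octamer ATTTGCAT between CCAAT and the start site, and H2BC26 holds CCAAT without that octamer in this window. The windows were picked by array value and difference, and whether the octamer goes with either was not tested. The H2A gene H2AC15, with the most negative difference among measured members, holds CCAAT on both strands.
H2BC12 (chr6:27146849-27146988, minus strand): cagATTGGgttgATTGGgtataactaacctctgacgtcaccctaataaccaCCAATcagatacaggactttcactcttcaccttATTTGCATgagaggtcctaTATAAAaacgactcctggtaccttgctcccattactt
H2BC18 (chr1:149812361-149812500, minus strand): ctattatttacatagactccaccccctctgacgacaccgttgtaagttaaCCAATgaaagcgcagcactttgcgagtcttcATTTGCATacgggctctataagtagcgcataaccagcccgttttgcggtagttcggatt
H2BC26 (chr1:228457973-228458112, plus strand): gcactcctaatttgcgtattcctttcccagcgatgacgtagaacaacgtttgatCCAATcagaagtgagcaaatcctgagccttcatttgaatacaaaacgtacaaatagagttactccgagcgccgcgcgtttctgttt
H2AC15 (chr6:27838366-27838505, minus strand): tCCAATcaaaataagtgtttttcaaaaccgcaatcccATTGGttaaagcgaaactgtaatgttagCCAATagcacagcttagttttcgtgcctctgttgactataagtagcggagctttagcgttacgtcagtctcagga

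For H3 the windows of the measured members with the most positive (H3C7) and most negative (H3C10) difference are shown, both with CCAAT and TATAAA. In H3C7 the reverse complement of GGTCCG overlaps CCAAT, and a reversed E2F site lies further upstream. For H4 the windows of H4C5, with the highest values of its type, and H4C8, with its most negative difference, both hold GGTCCG at the same distance from the start and no CCAAT.
H3C7 (chr6:26250626-26250765, minus strand): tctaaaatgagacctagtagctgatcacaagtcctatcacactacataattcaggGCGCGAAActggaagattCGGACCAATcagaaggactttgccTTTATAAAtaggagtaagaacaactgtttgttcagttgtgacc
H3C10 (chr6:27809921-27810060, plus strand): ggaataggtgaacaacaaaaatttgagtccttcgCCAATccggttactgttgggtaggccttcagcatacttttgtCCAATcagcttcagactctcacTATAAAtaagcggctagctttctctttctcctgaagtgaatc
H4C5 (chr6:26204480-26204619, plus strand): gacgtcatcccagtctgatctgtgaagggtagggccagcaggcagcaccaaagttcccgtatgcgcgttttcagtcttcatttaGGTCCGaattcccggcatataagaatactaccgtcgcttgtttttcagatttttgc
H4C8 (chr6:26285525-26285664, minus strand): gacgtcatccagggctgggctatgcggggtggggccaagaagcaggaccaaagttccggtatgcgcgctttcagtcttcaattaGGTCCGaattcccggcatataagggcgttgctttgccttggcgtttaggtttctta

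Neighbouring H2A and H2B genes often lie head to head and share their promoter, so that their windows overlap and the shares above are not independent. The 60 genes with a matched promoter held 8 such pairs, with 215 to 248 bases between the start sites. In 6 of them both genes were above the negative controls, and the log2 differences of the 2 genes had the same sign in 3 of these 6. Both members from the HIST3 cluster on chromosome 1 were lower with fb-PMT (H2AC25 -0.26, H2BC26 -0.30; adjusted p = 0.567 and 0.56 in limma's test). Their fb-PMT values, 7.46 and 7.53 for H2AC25 and 7.74 and 7.51 for H2BC26, lay close above the background of 7.15 and 7.29. H2AC13 (-0.19) and H2BC13 (-0.17) were also both lower, while H2AC11 was at 0.08 and H2BC11 at -0.20.

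After 24 h of fb-PMT the histone transcripts lay close to their control levels, and no histone gene was called changed. Of the 64 genes, 0 passed limma's test at an adjusted p of 0.05 (Benjamini-Hochberg over all 21448 transcript clusters), where 0.0979% of all transcript clusters passed, all of them higher. At an unadjusted p under 0.05 there were 2 members, both higher, against 11.2% of all transcript clusters (5.7% higher and 5.49% lower). In the mean 28 members were higher and 36 lower, and the median log2 difference (fb-PMT minus control) was -0.035, against -0.017 over all transcript clusters. Groups did not overlap for 7 members that were higher and 17 that were lower, where 20.2% and 22.3% of all transcript clusters had groups apart in those directions. The members with an unadjusted p under 0.05 were H4C1, which encodes histone H4, and H2BC17, which encodes an H2B and was below the negative controls. Array values rank no gene against another here, since each probe set binds with its own strength, and a fall in RNA per cell cannot be told apart from fewer cells in S phase. Genes of one type have nearly the same coding sequence, so probes may bind the mRNA of more than 1 copy, and values of single copies are uncertain.

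The differences between groups were small, and their intervals were about as wide as those of other genes. A measured gene is one above the 95th percentile of the negative controls on both arrays of at least 1 group, which held for 46 of the 64. The 95% interval of the log2 difference lay within a 2-fold change either way for all 46, against 93.0% of measured transcript clusters, and within 1.5-fold for 35 of them, against 51.1%. Standard errors of the 46 ran from 0.144 to 0.217, with a median of 0.162, against a median of 0.161 over measured transcript clusters. The median size of the difference between groups, without its sign, was 0.09 over the 46 genes, against 0.16 over measured transcript clusters. The replicates of one group differed by a median of 0.13 (fb-PMT) and 0.17 (control) in the same genes, and by 0.13 and 0.15 over measured transcript clusters. Replicate differences are between single arrays and group differences between means, so their sizes are not directly comparable. Of the 46, 3 were apart and higher and 12 apart and lower, 15 in all, while 27.3% and 22.8% of measured transcript clusters were apart in those directions, 50.1% in all. With the fit restricted to probe sets above the negative controls, 47 members were tested and 0 passed, against 3.09% of all those tested. There H4C1 and H2AC15 had an unadjusted p under 0.05, against 18.7% of those tested. H2AC15, one of the 12, counted as measured through the control arrays alone, since 1 fb-PMT array was below background.

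**Figure D2:**
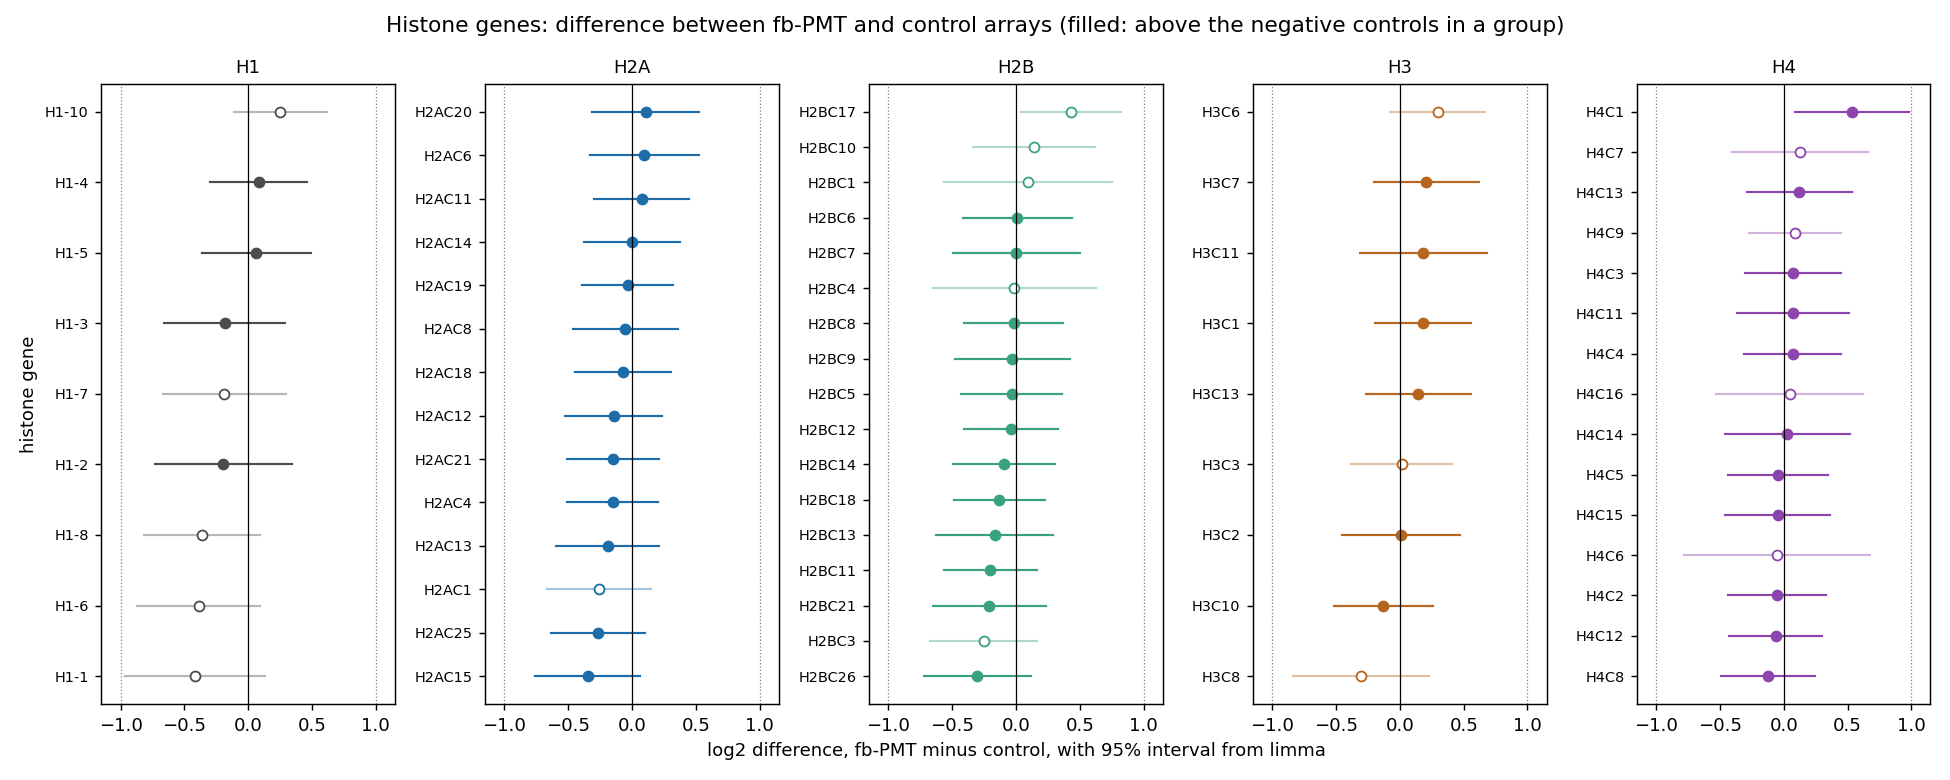
Log2 difference (fb-PMT minus control, horizontal axis) of each of the 64 histone genes by type, with limma's 95% interval as a bar. Filled points are measured genes, open points are the others, and dotted lines mark 2-fold changes. All bars lie between -0.96 and 0.98, and those of 2 genes, H4C1 and H2BC17, lie to the right of 0.

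Among H4 genes, H4C1 had the largest difference of all members. It had log2 values of 9.58 and 9.58 on the fb-PMT arrays and 9.23 and 8.86 on the control arrays. Both fb-PMT arrays were above both control arrays, and the control arrays lay about as far from each other as the nearer of them lay from the fb-PMT arrays. The difference was 0.54 (SE 0.18, 95% interval 0.09 to 0.98, 1.45-fold), with an adjusted p = 0.392 in limma's test and 0.126 to 0.743 over the alternatives. H4C3 and H4C5 had the highest values of their type. H4C3 had 16.11 and 16.25 with fb-PMT, against 16.05 and 16.16 in the control. H4C5 had 16.40 and 16.42 with fb-PMT, against 16.35 and 16.57 in the control. The groups overlapped for both genes. H4C8 had 13.07 and 13.11 with fb-PMT, against 13.15 and 13.28 in the control, lower on both arrays by a mean of 0.12 (log2 difference -0.12, adjusted p = 0.806 in limma's test).

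Over the 15 H4 genes the median log2 difference was 0.05, with 9 higher and 6 lower, and over the 11 measured ones 0.03. Without fb-PMT replicate 2 the median over the 15 was -0.059. Their groups did not overlap in 3 cases, higher for H4C1 and H4C9 and lower for H4C8, where 42.6% of all transcript clusters had groups apart. Besides those named, measured H4 genes had differences between -0.06 (H4C12) and 0.12 (H4C13). H4C6, H4C7, H4C9 and H4C16 did not reach the negative controls on any array. H4C7 is known for a protein that departs from the common H4 sequence, and the other H4 genes are known to encode one and the same protein.

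H3 genes, whose proteins pair with H4 in the nucleosome core, were more often higher than lower, 7 against 2 of 9, with a median log2 difference of 0.145. H3C7, which encodes H3.1, had 11.28 and 11.39 on the fb-PMT arrays, against 11.0 and 11.26 on the control arrays. The lowest fb-PMT array exceeded the highest control array by a margin smaller than the gap between the control arrays. Its difference was 0.21 (SE 0.17, 95% interval -0.21 to 0.62, adjusted p = 0.685 in limma's test). H3C11 had 15.41 and 15.54 with fb-PMT, against 15.07 and 15.52 in the control, and H3C2 had 11.78 and 12.05 with fb-PMT, against 11.76 and 12.05 in the control. Both overlapped between the groups. H3C10 was the 1 measured H3 gene with a lower mean, at 9.03 and 9.06 with fb-PMT, against 9.07 and 9.28 in the control, with the groups barely apart. H3C1 (0.18) and H3C13 (0.145), which encodes H3.2, completed the measured genes, while H3C3, H3C6 and H3C8 did not reach the negative controls on any array. Without control replicate 1 the H3 median was -0.04, so its sign rested on that array.

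Of 14 H2A genes, 10 were lower and 4 higher with a median log2 difference of -0.11, and the 4 pairs of one fb-PMT and one control array gave medians of -0.19 to -0.01. Groups were apart for 8 of the 14, all lower with fb-PMT, where 22.3% of all transcript clusters had groups apart in that direction. The 8 include H2AC1, below background on all arrays, H2AC15, measured through the control arrays alone, and H2AC19, at a difference of -0.034. Of the 13 measured H2A genes 7 were apart and lower, H2AC15 among them, against 22.8% of measured transcript clusters. For H2B these counts were 4 lower and 1 higher of 17, and for H3 1 lower and 3 higher of 9. Over all transcript clusters the shares were 22.3% lower and 20.2% higher. The count of H2A genes with an unadjusted p under 0.05 was 0, against 11.2% of all transcript clusters.

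H2AC15 had the most negative of these differences, with 7.35 and 7.09 on the fb-PMT arrays and 7.51 and 7.62 on the control arrays. All 4 values lay near the background, which 1 fb-PMT array did not reach, so no fold is given (adjusted p = 0.511 in limma's test, 0.24 to 0.858 over the alternatives). H2AC13 had 15.72 and 15.90 with fb-PMT, against 15.90 and 16.10 in the control, and was lower by a mean of 0.19 (log2 difference -0.19, adjusted p = 0.707 in limma's test). The higher fb-PMT array and the lower control array of H2AC13 were equal at the decimals shown. H2AC14 had 16.67 and 16.80 with fb-PMT, against 16.78 and 16.69 in the control. H2AC11 had 15.88 and 16.02 with fb-PMT, against 15.84 and 15.91 in the control. The groups of H2AC14 and H2AC11, and those of H2AC20, with the most positive difference at 0.11, overlapped. H2AC20 had 14.37 and 14.67 on the fb-PMT arrays, against 14.41 and 14.41 on the control arrays. The testis gene H2AC1 did not reach the negative controls on any array.

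H2B genes, whose proteins pair with H2A, had a median log2 difference of -0.035 over 17 genes, with 12 lower and 5 higher. Without control replicate 1 this median was -0.212 and without control replicate 2 it was 0.028, so its sign rested on 1 array. Of the 12 measured ones 10 were lower, and the median over the 12 was -0.07. H2BC12, whose promoter with the octamer is shown above, had 16.97 and 16.85 with fb-PMT, against 16.94 and 16.97 in the control, with overlap. H2BC18 had 16.11 and 16.14 on the fb-PMT arrays, against 16.25 and 16.26 on the control arrays. Its groups were apart with close replicates, at a log2 difference of -0.13 (SE 0.14, 95% interval -0.49 to 0.23, adjusted p = 0.784 in limma's test). H2BC26 had 7.74 and 7.51 with fb-PMT, against 7.83 and 8.02 in the control. It was lower on both arrays by a mean of 0.30 (log2 difference -0.30, adjusted p = 0.56 in limma's test), with fb-PMT values close above background. H2BC6 had 10.57 and 10.87 with fb-PMT, against 10.65 and 10.77 in the control. H2BC6 thus overlapped, at a difference of 0.01, the most positive among measured H2B genes.

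H2BC17 had 6.11 and 5.89 on the fb-PMT arrays and 5.55 and 5.58 on the control arrays, all below the negative controls, so no fold is given (adjusted p = 0.416 in limma's test). H2BC1, H2BC3 and H2BC10 were also below them on all 4 arrays, and H2BC4 was above them on 1 array of each group.

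The groups overlapped for each of the 4 measured linker histone genes. H1-4 had 16.00 and 16.17 on the fb-PMT arrays and 15.96 and 16.04 on the control arrays. H1-5 had 16.10 and 16.38 with fb-PMT, against 16.09 and 16.25 in the control. H1-2 had 11.55 and 12.05 with fb-PMT, against 11.89 and 12.11 in the control. All 3 are somatic H1 subtypes, and in each the groups overlapped. H1-3, another somatic subtype, had 10.42 and 10.62 with fb-PMT, against 10.51 and 10.89 in the control, again with overlap. The log2 differences of these 4 were 0.08 (H1-4), 0.07 (H1-5), -0.20 (H1-2) and -0.18 (H1-3). The median over all 9 H1 genes was -0.19, and over the 4 measured ones -0.06. The median of the 9 was -0.284 when fb-PMT replicate 2 was left out and -0.036 when fb-PMT replicate 1 was. The other 5, H1-1, H1-6, H1-7, H1-8 and H1-10, stayed under the negative controls throughout, the germ cell genes H1-6, H1-7 and H1-8 among them. Of these, H1-1, H1-6 and H1-8 were lower and H1-10 higher on both fb-PMT arrays, all at levels where no fold is given.

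**Figure D3:**
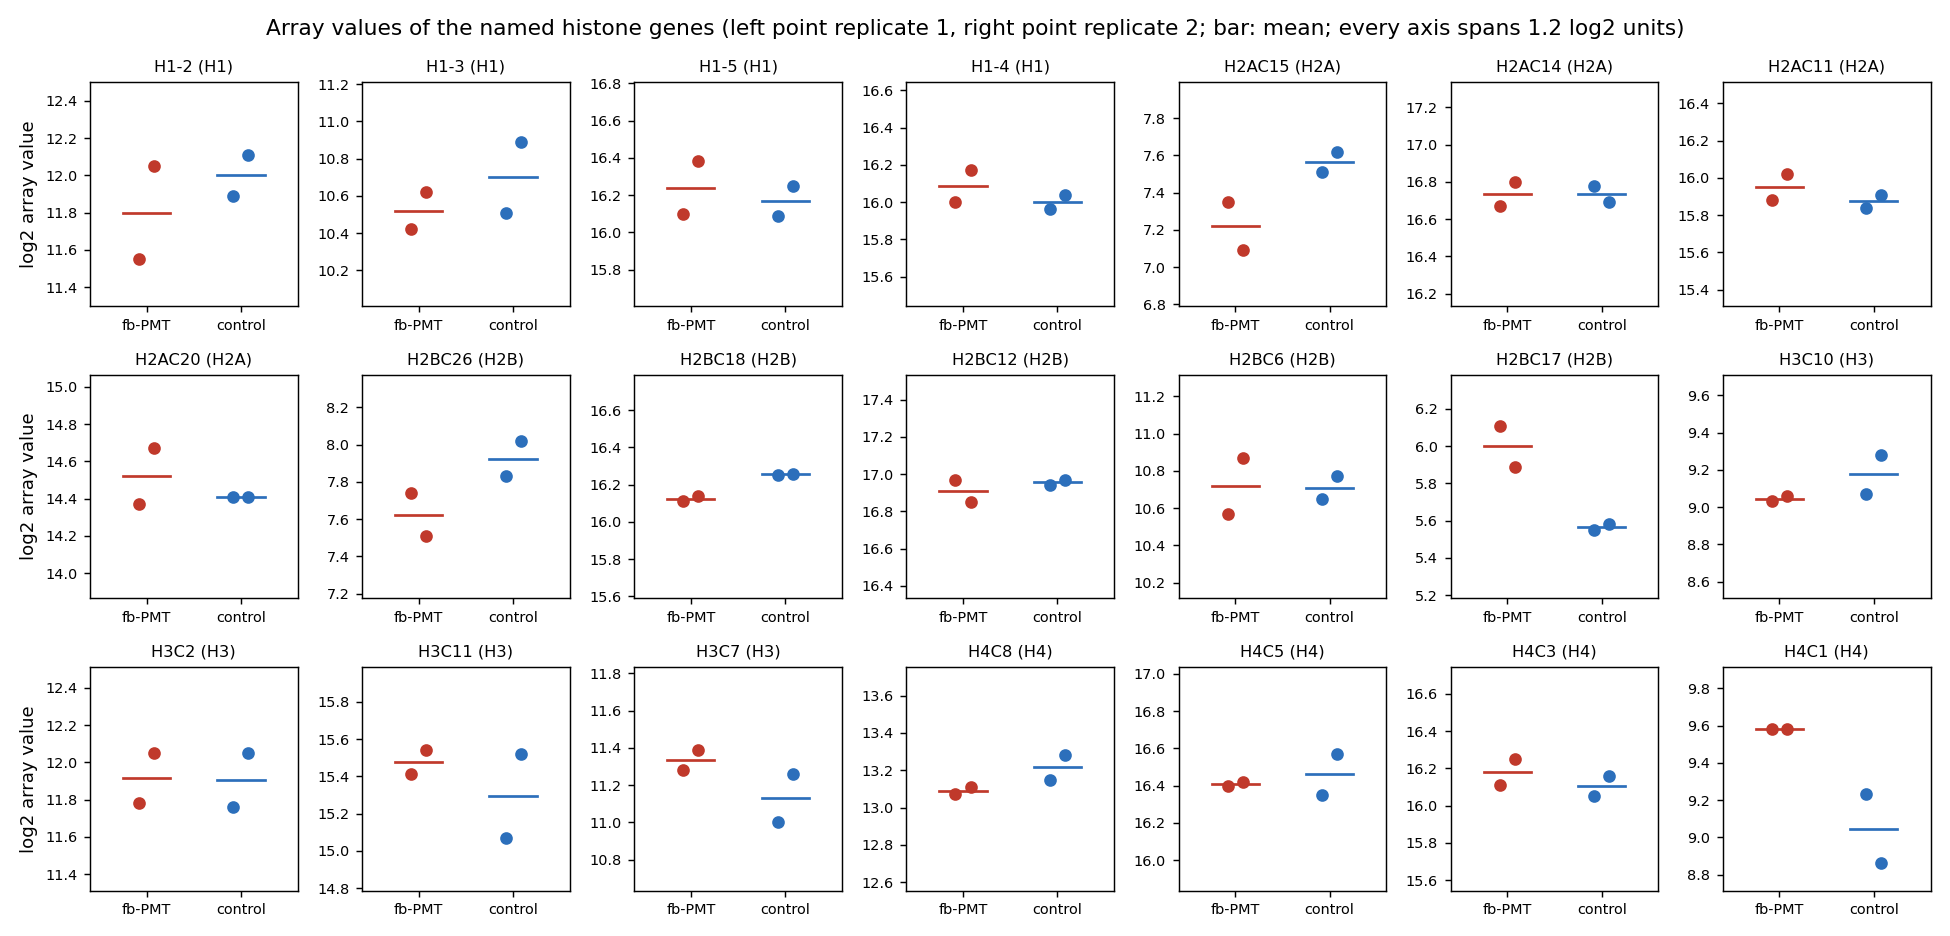
Log2 array values (vertical axes, each spanning 1.2 log2 units) of 21 histone genes on the 2 fb-PMT and the 2 control arrays, with each group's mean as a bar. The fb-PMT points of H4C1 and H2BC17 lie above their control points, those of H2AC15, H2BC26 and H2BC18 lie below, and in H1-2, H3C2 and H4C5 the groups overlap.

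The replicates of a group differed in the same direction across histone genes. Of the 46 measured genes, 36 were higher on fb-PMT replicate 2 than on fb-PMT replicate 1, and 39 were higher on control replicate 2 than on control replicate 1. Both held for 31 genes (67.4%), against 28.6% of measured transcript clusters. The median deviation from a gene's mean over the 4 arrays was -0.06 and 0.03 on fb-PMT replicates 1 and 2 and -0.06 and 0.10 on control replicates 1 and 2. Over all measured transcript clusters these deviations were 0.01, 0.01, -0.02 and 0.01. The part of this replicate spread in the histone differences was not tested beyond leaving out each array.

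By type, H2A and H2B genes together (25 measured) deviated by -0.06 and -0.01 on the fb-PMT arrays, against -0.03 and 0.12 on the control arrays. H3 and H4 genes together (17 measured) deviated by -0.03 and 0.10 on the fb-PMT arrays, against -0.08 and 0.06 on the control arrays. For H3 and H4 both replicate 2 arrays stood above both replicate 1 arrays, whichever the group. For H2A and H2B control replicate 2 stood highest and the other 3 arrays were below 0. The difference between the sets was not tested.

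**Figure D4:**
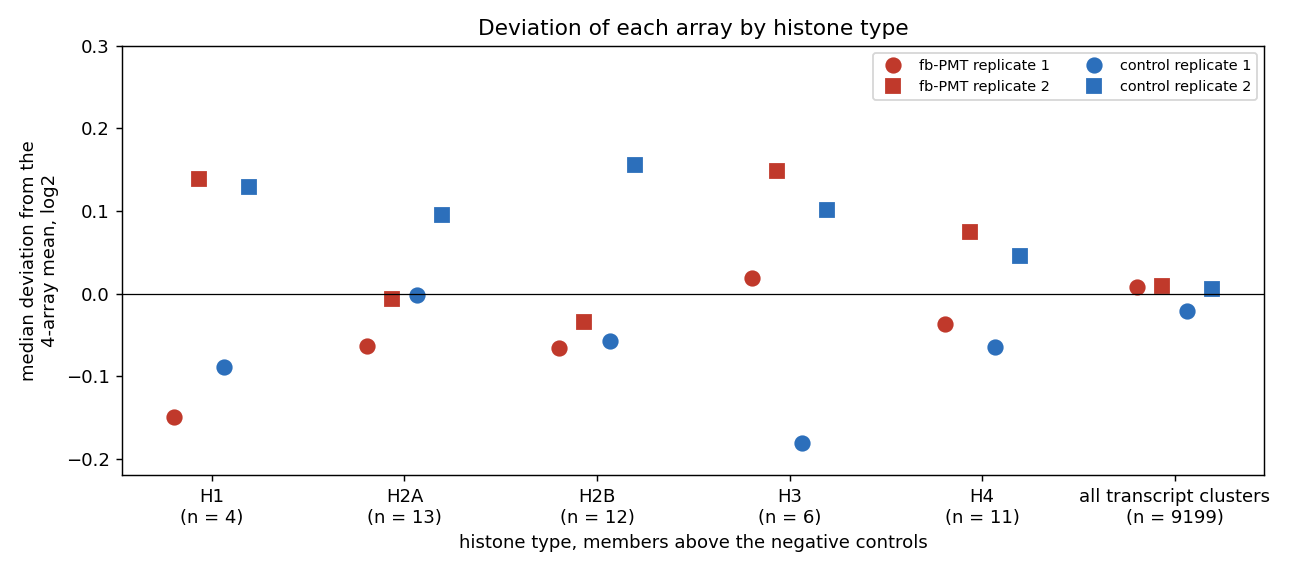
Median deviation of each array from the 4-array mean of a gene (vertical axis, log2) over the measured genes of each histone type and over all measured transcript clusters. Squares (replicate 2) lie above circles (replicate 1) of the same group in every histone type, while the 4 points of all transcript clusters lie between -0.02 and 0.01.

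Genes that make and handle histone mRNA were compared next, from lists of textbook members. Of 29 genes of histone transcription and mRNA 3′ end processing, 0 passed and 0 had an unadjusted p under 0.05. All 29 were measured, and 12.0% of measured transcript clusters had an unadjusted p under 0.05. In the mean 11 of the 29 were higher and 18 lower, with a median log2 difference of -0.065. SLBP had 9.95 and 10.26 with fb-PMT, against 10.42 and 10.17 in the control. NPAT had 9.32 and 9.71 with fb-PMT, against 9.44 and 9.99 in the control. Both overlapped. SRRT, which joins the cap-binding complex to 3′ end processing, was at -0.36 (adjusted p = 0.446 in limma's test). LSM11, a U7 protein, had 7.34 and 7.57 with fb-PMT, against 7.11 and 7.09 in the control, where both arrays were below background (adjusted p = 0.489 in limma's test).

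Histone chaperones, which carry new histones to DNA, had 11 of 28 genes higher and 17 lower, with a median of -0.12 and 0 past the test. ANP32E, which removes H2A.Z, was at -0.37 and TSPYL1, of the nucleosome assembly protein family, at 0.47 (adjusted p = 0.445 and 0.439 in limma's test). They were the 2 of 28 with an unadjusted p under 0.05, where 11.2% of all transcript clusters had one. Replication-independent variants, a list that also holds CENPA and testis genes, had 4 of 13 genes higher and 9 lower, with a median of -0.04, and 0 passed. H2AX, phosphorylated at DNA breaks, had 13.93 and 14.01 with fb-PMT, against 14.07 and 14.15 in the control. H2AZ1 had 15.24 and 15.44 with fb-PMT, against 15.44 and 15.56 in the control. H3-3B, which encodes H3.3, had 14.33 and 14.20 with fb-PMT, against 14.28 and 14.61 in the control. Both fb-PMT arrays of H2AX lay below its control arrays, those of H2AZ1 did so by less than the decimals shown, and H3-3B overlapped. H3-3A was not analysed here.

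S phase genes and E2F targets mark the setting in which histone mRNAs are made. By sign they were evenly divided, with 22 of 44 higher, 22 lower and a median log2 difference of 0.002. Groups were apart for 5 that were higher and 12 that were lower, where 20.2% and 22.3% of all transcript clusters were apart in those directions. Of the 44, 42 were measured, and of measured transcript clusters 27.3% and 22.8% were apart in those directions. PCNA, the sliding clamp of DNA polymerases, had 13.13 and 13.16 with fb-PMT, against 13.38 and 13.40 in the control. Its groups were apart at a difference of -0.25 (SE 0.14, adjusted p = 0.581 in limma's test). POLA2, a subunit of DNA polymerase α, was at 0.48 and was the 1 of 44 with an unadjusted p under 0.05, against 11.2% of all transcript clusters (adjusted p = 0.446 in limma's test).

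Mitosis genes were lower in 23 of 30 cases with a median of -0.07, and 0 passed. All 30 were measured, and groups were apart for 4 that were higher and 13 that were lower. Of measured transcript clusters 27.3% and 22.8% were apart in those directions. MKI67, a proliferation marker, had 13.99 and 13.75 with fb-PMT, against 14.05 and 14.09 in the control. CENPE, a kinetochore kinesin and the 1 of 30 with an unadjusted p under 0.05, was at -0.67 (SE 0.15, 1.59-fold lower, adjusted p = 0.268 in limma's test). Of measured transcript clusters 12.0% had an unadjusted p under 0.05. Among CDK inhibitors and genes of quiescence 11 of 22 were higher, with a median of 0.02 and 0 past the test. This list also holds the D cyclins CCND1 (0.105), CCND2 and CCND3 (0.209), which are not CDK inhibitors. An unadjusted p under 0.05 was found for 2 higher and 3 lower members of the 22, against 11.2% of all transcript clusters. CCNG2, a cyclin that restrains the cell cycle, had 8.99 and 9.04 with fb-PMT, against 8.18 and 8.24 in the control (1.75-fold, adjusted p = 0.203). CDKN1B, the inhibitor p27, was at 0.59 and E2F5, a repressive E2F factor, at -0.57 (adjusted p = 0.408 and 0.445). LIN37, a subunit of the DREAM complex, was at -0.41 (adjusted p = 0.432). The D cyclin CCND2, at an adjusted p = 0.332, did not reach the negative controls on any array. All these adjusted p are limma's over 21448 transcript clusters. With an intensity trend in the variance, under which 1.88% of transcript clusters passed, 1 mitosis gene and 1 gene of quiescence passed, and 0 of the 64 histone genes.

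**Figure D5:**
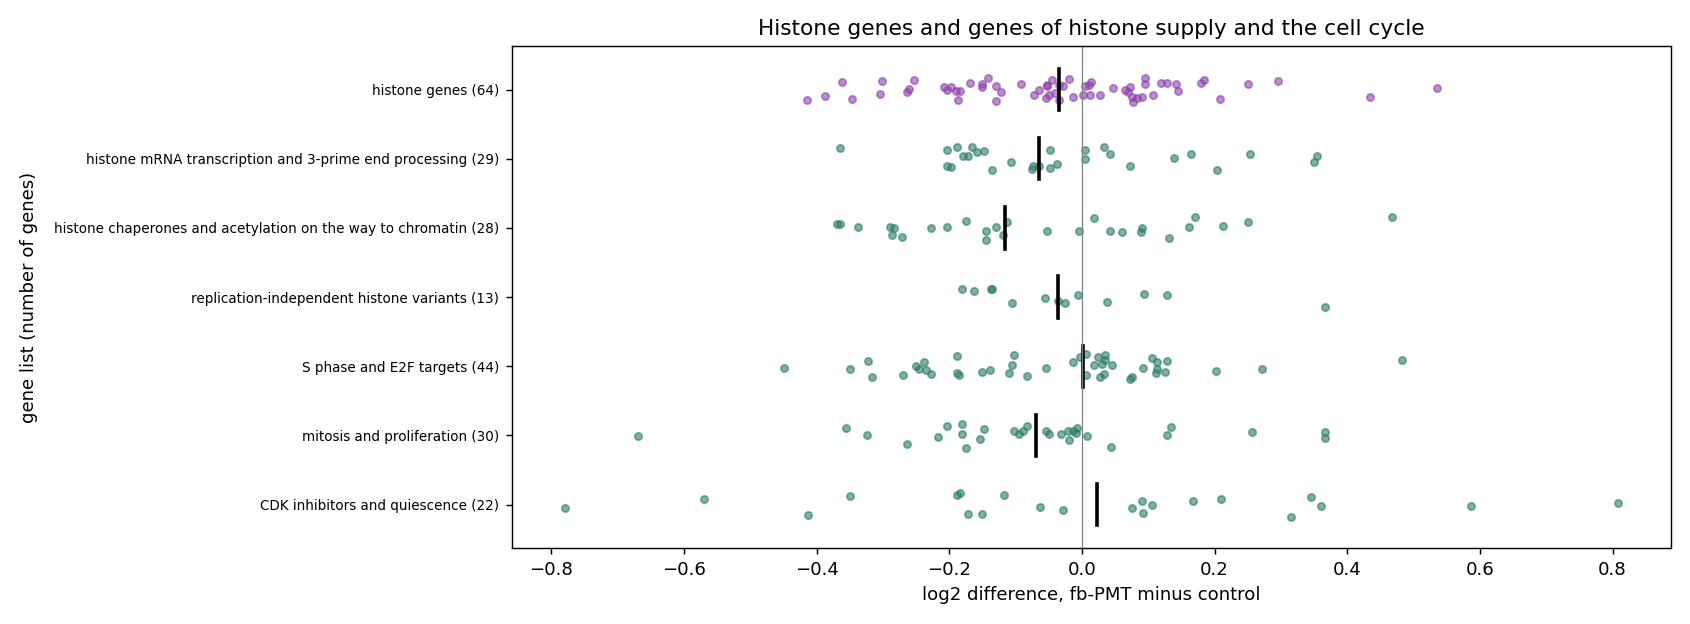
Log2 difference (fb-PMT minus control, horizontal axis) of the 64 histone genes and of 6 lists of related genes, each point a gene and each bar the median. The histone genes lie between -0.42 and 0.54. The widest list, CDK inhibitors and quiescence, which also holds D cyclins, lies between -0.78 and 0.81.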

How the data were processed

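Total RNA of 4 SUIT2 samples was measured on single-colour arrays with probes along the whole transcript. The submitters' processing notes name RMA and Transcriptome Analysis Console 4.0.1.36, so the deposited log2 values are RMA summaries of each probe set. Which form of RMA, and which build, is not given in the sources used here. Normalization between arrays removes a shift shared by most genes. Of 24351 probe sets, 2903 controls were left out. The platform annotation gave 1 symbol for 17709 of the 21448 transcript clusters, and 612 negative control probe sets gave the background.

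All transcript clusters entered 1 limma model (version 3.58.1, R 4.3.3; lmFit, then eBayes without trend), fb-PMT minus control, two-sided, with Benjamini-Hochberg adjustment over 21448 transcript clusters. The fit was tested on simulated data, with independent errors drawn from its own variance model and added changes larger than any histone difference. That test does not show how well small differences, or those of genes that move together, are recovered. Alternatives were the replicate block, intensity trend, robust variances, 3 filters, 2 scalings and leaving out each array. Members and lists were chosen with earlier results of these data known.

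Array values are given for members with an unadjusted p under 0.05, for the 2 with the highest values of each type, for the most positive and most negative measured difference of each type and for measured H1 genes. From each list up to 4 members with an unadjusted p under 0.05, otherwise the 2 largest differences, and SLBP, NPAT, MKI67, PCNA and variants are named. Other genes, LIN37 among them, were named after their values were seen. Protein sequences were not used here.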

Additional observations from a re-analysis of the deposited data

How the results depend on the processing

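Under all 12 alternatives that refit the table, 0 of the 64 histone genes passed limma's test; their lowest adjusted p was 0.126 (H4C1, filter on negative controls). Members with an unadjusted p under 0.05 numbered 2, both higher, against 11.2% of all transcript clusters. With an intensity trend H4C1 alone had one, against 12.9% of all transcript clusters. With robust variances added these members were H4C1, higher, and H2AC13, lower. The replicate block gave H4C1 and H2BC17, higher, and H1-1, lower and below background. The share over all transcript clusters was not computed for either of these. Members with groups apart numbered 24 of the 64, where 42.6% of all transcript clusters had groups apart. They numbered 15 with the filter on negative controls, which tests fewer genes, and 44 without any one array, where 1 array faces 2. Leaving out an array can only add genes to this count. Shares over all transcript clusters were not computed for these alternatives, so the 44 is no result about histone genes. Over all transcript clusters 21 passed. This became 403 with an intensity trend, 394 with robust variances added, 289 with the filter on negative controls, 67 without the lowest 30%, 44 with 1 symbol, and between 1 and 9 without one of the arrays. The replicate block left 1, and 0 histone genes passed under it. Same-numbered arrays deviated together with r = 0.042 over all transcript clusters, 11820 of which were below background on all arrays. That r does not describe the histone genes by themselves. In 67.4% of measured histone genes replicate 2 was above replicate 1 in both groups, against 28.6% of measured transcript clusters. Whether same-numbered arrays belong together was not tested.

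Type medians moved as follows. That of H1 was -0.059 among measured genes, with the filter on negative controls and without the lowest 30%, since fewer genes entered. Leaving out 1 array gave -0.284 to -0.036 for H1, -0.212 to 0.028 for H2B, -0.043 to 0.155 for H3 and -0.059 to 0.087 for H4, and -0.156 to -0.069 for H2A. Without H1-10 and the germ cell H1 genes the H1 median was -0.183.

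Of 21 named members 11 turned sign at least once, in 18 of 251 values. With renewed quantile normalization H2AC14 was at -0.022, H2BC6 at -0.015 and H3C2 at -0.031. When 1 array was left out, the range was -0.448 to 0.055 for H1-2, -0.372 to 0.0057 for H1-3, -0.0001 to 0.166 for H1-4, -0.074 to 0.205 for H1-5, -0.064 to 0.066 for H2AC14, -0.043 to 0.257 for H2AC20, -0.098 to 0.018 for H2BC12, -0.138 to 0.161 for H2BC6, -0.043 to 0.411 for H3C11, -0.135 to 0.155 for H3C2 and -0.156 to 0.065 for H4C5. H4C1 kept its sign, at 0.351 to 0.719. Of the lists, mitosis and CDK inhibitors each had 1 gene past the test with an intensity trend, with robust variances added and with the filter on negative controls, and 0 otherwise. The cause was not tested where none is given.

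The 2 arrays per group limit the precision, and 17 members gave no signal above background on any array. Of the 46 measured members 12 had mean values over 15, where the highest transcript cluster value was 18.05; whether signal is compressed there was not tested.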
